A study of Mus musculus with 32 samples.

Results

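At day 4 of differentiation, cells of the moderate sorted fraction in which induction of β-catenin was kept on (C1MDT, 4 libraries) were compared with cells of the same fraction from which the inducers had been withdrawn (C1MV, 4 libraries). These 8 libraries were taken by their group labels from the 32 of the series, which hold 8 groups of 4. All come from C1, a line of mouse embryonic stem cells without endogenous β-catenin (β-catenin-/-) into which DD-mCherry-β-catenin S33Y was placed, where DD is a destabilizing domain and S33Y a form of β-catenin that escapes its destruction complex. In this line EF1a drives the rtTA activator, doxycycline (dox) starts transcription of the fusion gene from its TRE3G promoter, and trimethoprim (TMP) keeps the fusion protein from being degraded. The methods place the starting cells in a medium with inhibitors of GSK3 and MEK plus LIF, whereas the labels describe serum with LIF. Every cell of C1MDT and C1MV had received 100 ng/mL dox and 10 μM TMP for 48 h before it was sorted for medium mCherry fluorescence. The sorted cells were then plated on gelatin in NDiff227 for 4 days, C1MDT with 100 ng/mL dox and 10 μM TMP and C1MV with vehicle only. The comparison therefore answers what continued induction did to cells that had all been induced before. Because no group without the fusion gene received both compounds, the fusion protein, dox and TMP cannot be told apart here, and both groups come from 1 engineered line. Other groups appear below only beside a result: C1 (TMP only) and C1M (sorted moderate) at day 0, C1T (TMP throughout, never dox) at day 4, and the high fractions C1H at day 0 and C1HV and C1HDT at day 4.

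β-Catenin is both a partner of cadherins at cell junctions and the effector of canonical Wnt signalling, in which it enters the nucleus and binds TCF and LEF factors at their target genes. In mouse embryonic stem cells the pathway is known for sustaining the naive state, largely by relieving repression of genes such as Esrrb, Klf2, Tfcp2l1 and Nanog by the TCF family. When naive cells leave that state they switch off these genes and pass through a formative, epiblast-like phase marked by Fgf5, Pou3f1, Otx2 and the de novo DNA methyltransferases, before lineage genes follow. In bulk cultures, fewer cells of a type and less RNA per cell cannot be told apart.

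QuantSeq libraries, made from transcript 3′ ends, held 1366951 to 2780255 reads on genes per C1MV library and 1715046 to 3648787 per C1MDT library. Values are CPM, counts scaled to library size, after edgeR's TMM scaling, and on that scale 3 counts, used as the floor, stood at 0.837 to 2.14 CPM in these 8 libraries. C1MV replicate 4 stood apart: it had the fewest reads, the largest share of reads outside genes (6.83% against 5.56% to 5.99% in its group and 5.04% to 5.31% in C1MDT) and, on the second principal component (17.2% of the variance), a score of -38.5 where the other 7 libraries lay between -15.0 and 25.2. The first component (28.3% of the variance) parted the 4 C1MDT libraries from the 4 C1MV libraries. As a check of the cell type, the stem cell factor Pou5f1 was counted at 34.96 to 50.8 CPM in C1MV and 43.6 to 55.4 in C1MDT, and its partner Sox2 at 399.8 to 566 and 242 to 292. The labels call the 4 libraries of a group biological replicates. The paper describes the 4 samples that it averaged per group as coming from the same experiment. Neither says that they come from separate sorts or cultures, so p-values measure only the spread between these libraries. Of 11 feeder fibroblast markers 7 were measured and none was called, with Col3a1 and Lum at or under the floor in every library and a summed level of 24.3 to 37.8 CPM in C1MV and 17.9 to 29.4 in C1MDT.

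Of 15280 genes tested, 1924 (12.6%) differed between C1MDT and C1MV at an FDR (Benjamini-Hochberg adjusted p of edgeR's quasi-likelihood test) under 0.05. Of these, 1015 genes (6.64%) were higher and 909 (5.95%) lower in C1MDT. The changes were mostly small, with a median size of 0.51 on the log2 scale over the called genes, and 82 genes rose and 199 fell by more than 1. Called or not, the 4 libraries of each group did not overlap in 1148 genes that were higher (7.51%) and 1087 that were lower (7.11%), 14.6% together. Among these, 1455 genes were also called (9.52% of those tested), 788 higher (5.16%) and 667 lower (4.37%). Leaving out C1MDT replicate 3, the deepest library, lowered the number of called genes most, to 1410. Without C1MV replicate 4 it was 1643, and 1514 of the 1924 (78.7%) were called again in the same direction. Over the 8 fits that each left out 1 library, 978 genes (50.8%) stayed called in every fit and no called gene changed sign. The plot of all tested genes against their level shows the larger number of big decreases.

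**Figure D1:**
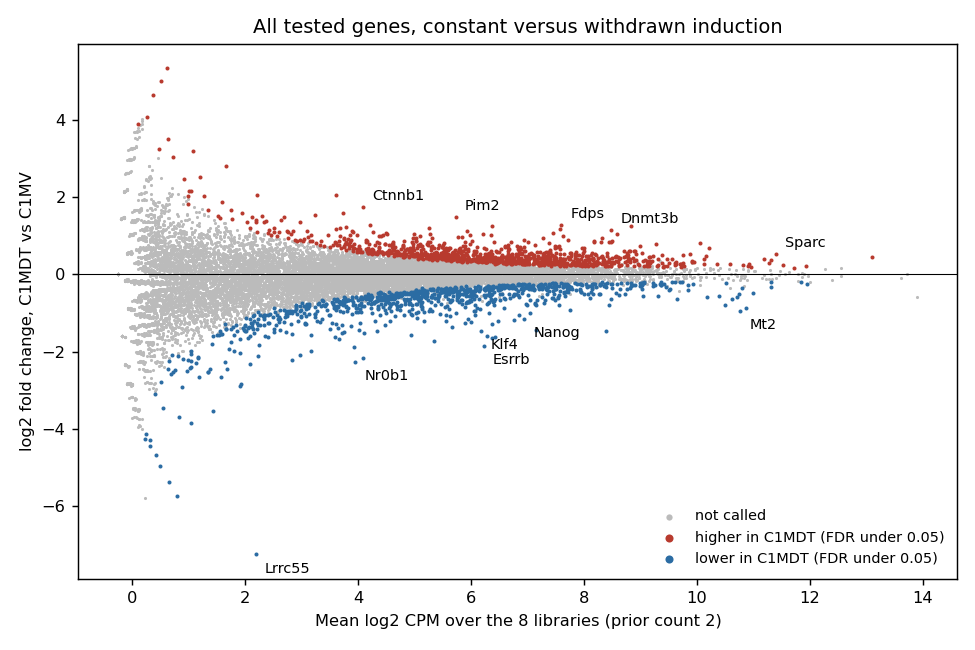
Each point is 1 of 15280 tested genes, with the mean log2 CPM over the 8 libraries on the x axis and the log2 fold change of C1MDT vs C1MV on the y axis; red and blue mark the 1015 genes higher and 909 lower at FDR under 0.05, and grey the others. Ctnnb1 and Pim2 lie above 1 and Lrrc55, with 0 or 1 reads per C1MDT library, is the lowest point.

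The gene put back into these cells was higher where the inducers stayed. Ctnnb1 (ENSMUSG00000006932, chromosome 9 from 120929216 to 120960507 of GRCm38) was counted at 10.5, 7.11, 6.91 and 12.1 CPM in C1MV replicates 1 to 4 and at 25.4, 25.8, 31.6 and 34.1 CPM in C1MDT. Every C1MDT library lay above every C1MV library, and the fold change was 3.35 (log2 fold change 1.74, SE 0.21, edgeR FDR = 5.59e-12). For comparison, its mean was 9.74 CPM in C1T, which never had dox. At day 0, C1M after 48 h of dox and TMP (9.45 to 17.8 CPM) overlapped C1 (TMP only, 5.19 to 11.0 CPM). Whether 3′ reads of the fusion transcript fall on the annotated Ctnnb1 end was not tested. The level therefore checks the labels of the day 4 groups but does not measure the fusion protein.

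Of 25 listed Wnt feedback and direct target genes 20 were tested, 2 were higher and 2 lower (20%, where 12.6% of all tested genes were called), and their median log2 fold change was 0.03 beside -0.02 over all tested genes. Axin2, the usual feedback readout of the pathway, was counted at 2.42, 4.49, 1.45 and 2.85 CPM in C1MV and 2.88, 1.47, 3.07 and 3.44 in C1MDT. The groups overlapped near the floor (log2 fold change -0.03, SE 0.49, edgeR FDR = 0.98), so a difference was not detectable. Lef1, a nuclear partner of β-catenin and itself a target, rose in contrast from 89.9, 78.6, 70.5 and 67.8 CPM to 133, 133, 131 and 130.1, with no overlap (log2 fold change 0.77, SE 0.11, edgeR FDR = 5.48e-09). Ccnd1, the G1 cyclin often named as a target, rose slightly (log2 fold change 0.28, edgeR FDR = 0.0379), and this call was lost without C1MV replicate 4 (edgeR FDR = 0.0754). Tnfrsf19, a receptor of the TNF family known as a Wnt target, fell from 19.4, 21.3, 26.2 and 22.8 CPM to 6.92, 8.85, 11.2 and 7.23 (log2 fold change -1.35, SE 0.22, edgeR FDR = 3.08e-07). Bmp4 also fell (log2 fold change -0.95, edgeR FDR = 0.0201), again not past the threshold without C1MV replicate 4 (edgeR FDR = 0.123). T, Sp5, Lgr5 and Rnf43, all classical targets, were too low to be tested. The 20 tested genes summed to 486.3 to 541.5 CPM in C1MV and 548.7 to 585.5 in C1MDT. In C1T, which never had dox, they summed to 918.6 to 1066 CPM.

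Of 30 tested members of the destruction complex and the TCF co-regulators, 6 were higher, Ctnnb1 among them, and 2 lower, beside 6.64% and 5.95% of all tested genes. Ctnnbip1, which encodes the ICAT inhibitor that keeps β-catenin from TCF, rose from 134, 138, 169.7 and 116 CPM to 199, 225, 209 and 187 (log2 fold change 0.54, SE 0.09, edgeR FDR = 4.73e-07). Cby1, another nuclear antagonist of β-catenin, rose as well (log2 fold change 0.56, edgeR FDR = 0.00762). Aes, a short Groucho family corepressor, fell by 0.45 on the log2 scale (edgeR FDR = 3.17e-04). Among 32 tested ligands, receptors and secreted modulators, Porcn, needed to acylate Wnt ligands, was higher (log2 fold change 0.56), while Wls, which carries them to the surface, the receptor Fzd5 and the secreted antagonist Sfrp1 had log2 fold changes of -0.43, -0.40 and -0.30. Without C1MV replicate 4, Porcn (edgeR FDR = 0.113) and Fzd5 (edgeR FDR = 0.0794) were not called. Of 16 tested catenins and cadherins only Vcl was called (6.25%, beside 12.6% of all tested genes), and Jup, the catenin nearest to β-catenin, stood at 15.7 to 29.2 CPM in C1MV and 17.3 to 24.3 in C1MDT with overlapping libraries.

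Lrrc55 had the lowest fold change of all tested genes and was singled out after its values were seen. The gene (ENSMUSG00000075224, chromosome 2 from 85162334 to 85197197) encodes a leucine-rich repeat protein known as an auxiliary subunit of BK potassium channels. It had 40, 57, 69 and 37 reads in the C1MV libraries (16.1, 21.3, 25.1 and 26.4 CPM) and 0, 0, 0 and 1 reads in C1MDT. Since C1MDT was at the floor of 3 counts per library, the level was at least 18.9-fold lower in C1MDT (edgeR FDR = 5.40e-22). Across the series the gene had 22 to 70 reads per library in C1, C1T, C1MV and C1HV, all collected without dox. It had 0 to 8 reads in C1M, C1H, C1MDT and C1HDT, all collected under dox and TMP. No library of the one set overlapped any of the other, in both days and both sorted fractions. The gene overlaps the antisense models Gm13713 and Gm13716. With the strand setting of the counting not given, their reads cannot be told apart from those of Lrrc55. Within 200 kb on either side of it, 4 of 12 annotated genes were tested. Apart from Lrrc55 only Ssrp1, a histone chaperone subunit, was called there, and it was higher in C1MDT (log2 fold change 0.60, edgeR FDR = 8.28e-12). The sequence of the 250 bases before the annotated start (RefSeq, GRCm38.p6, chr2:85198751-85199000, minus strand) is shown because the gene separated in this way. This RefSeq start lies outside the interval of the gene given above, which is that of the Ensembl annotation, and the window holds neither spelling of the TCF and LEF core CTTTGAT or CTTTGTT on either strand.
Lrrc55: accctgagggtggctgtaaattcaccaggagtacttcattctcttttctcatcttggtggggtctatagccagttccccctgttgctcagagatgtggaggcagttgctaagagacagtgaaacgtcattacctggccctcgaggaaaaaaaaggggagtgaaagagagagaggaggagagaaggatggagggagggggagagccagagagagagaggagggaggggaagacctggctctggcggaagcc

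Genes of sterol and fatty acid synthesis were higher in C1MDT almost throughout. This pathway turns acetyl-CoA into mevalonate, isoprenoids and cholesterol, or through malonyl-CoA into fatty acids, and its genes are known to share activation by the SREBP factors, which bind sterol regulatory elements together with NF-Y at CCAAT boxes. All 31 listed genes were tested, 27 were higher, none was lower and the remaining 4 had positive fold changes. The median log2 fold change of the list was 0.83 beside -0.02 over all tested genes, and 6.64% of all tested genes were called higher. Their summed level was 3162 to 3486 CPM in the C1MV libraries and 6055 to 6547 CPM in the C1MDT libraries, with 4331 to 4488 in C1M before differentiation and 5134 to 5429 in C1T. Without C1MV replicate 4 the list again had 27 members higher.

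Along the mevalonate branch, Hmgcs1, which makes HMG-CoA, was counted at 251, 292, 277 and 248 CPM in C1MV and 477, 495, 484 and 445 in C1MDT (log2 fold change 0.83, SE 0.07, edgeR FDR = 4.34e-19). Pmvk, which phosphorylates phosphomevalonate, went from 122, 130.3, 129 and 128 to 296, 297, 265 and 286 CPM (log2 fold change 1.16, SE 0.08, edgeR FDR = 1.18e-25). In both genes the lowest C1MDT library lay clearly above the highest C1MV library. The other kinase Mvk, the decarboxylase Mvd and the farnesyl diphosphate synthase Fdps rose by 1.11, 1.26 and 1.27 on the log2 scale. Fdps (ENSMUSG00000059743, chromosome 3 from 89093588 to 89101959) was at 138, 136, 119.9 and 104 CPM in C1MV and 329.9, 299, 308 and 276 in C1MDT (SE 0.09, edgeR FDR = 5.59e-27), the lowest FDR of the list. Idi1, the isomerase between Mvd and Fdps, lay near the floor and was not called (edgeR FDR = 0.169).

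After squalene the same direction held. Sqle, the epoxidase, had 133 to 159 CPM in C1MV and 236 to 253 in C1MDT, and Lss, the cyclase that closes the sterol rings, 21.7 to 27.8 and 51.9 to 61.6. Later enzymes (Cyp51, Msmo1, Nsdhl, Hsd17b7, Sc5d and Dhcr7) rose by 0.59 to 0.97 on the log2 scale and were all called, while Ebp (log2 fold change 0.15, edgeR FDR = 0.448) and the sterol reductase Tm7sf2 (log2 fold change 0.81, edgeR FDR = 0.0597) did not pass. In the fatty acid branch Fasn, the multifunctional synthase, was at 288, 281, 289 and 210.5 CPM in C1MV and 544, 475, 669 and 532 in C1MDT (log2 fold change 1.05, SE 0.12, edgeR FDR = 3.23e-07). Acaca, which makes malonyl-CoA, Acly, which supplies cytosolic acetyl-CoA, and the desaturases Scd1 and Scd2 rose by 0.68 to 1.01, and the elongase Elovl6 by 0.34. Srebf2, the sterol-controlled factor of the family, rose by 0.58 (edgeR FDR = 9.59e-09), and Insig1, which retains it in the endoplasmic reticulum, by 0.83 (edgeR FDR = 3.87e-09). Srebf1, at 2.85 to 6.91 and 7.26 to 11.4 CPM, did not pass the threshold (edgeR FDR = 0.0887). Outside the list, and chosen after their values were seen, the cytosolic thiolase Acat2 (log2 fold change 1.06), the ketone-using synthetase Aacs (1.58) and the citrate carrier Slc25a1 (0.74) were also higher, of which Aacs was named by the rule.

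Since these genes moved together, the 250 bases before the start of 4 of them are printed from RefSeq (GRCm38.p6), 5′ to 3′ on the gene's strand, with capitals on the letters CCAAT, on either strand, and on the sterol regulatory core TCACNCCAC, on either strand. Hmgcs1 lies at chr13:119690101-119690350 (plus strand), Mvd at chr8:122443423-122443672 (minus), Mvk at chr5:114444019-114444268 (plus) and Lss at chr10:76531355-76531604 (plus). The 2 motifs were chosen after the values were seen. In Hmgcs1 the sterol core starts 137 bases before the start between CCAAT boxes at 237, 176 and 45, and no capitals of the 2 motifs overlap. Mvd holds 2 CCAAT boxes, Mvk 5 and Lss 1.
Hmgcs1: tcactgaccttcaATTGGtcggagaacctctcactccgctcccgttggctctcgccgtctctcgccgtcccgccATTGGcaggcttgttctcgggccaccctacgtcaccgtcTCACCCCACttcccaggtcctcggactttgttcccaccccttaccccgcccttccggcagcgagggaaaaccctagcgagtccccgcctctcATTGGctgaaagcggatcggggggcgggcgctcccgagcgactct
Mvd: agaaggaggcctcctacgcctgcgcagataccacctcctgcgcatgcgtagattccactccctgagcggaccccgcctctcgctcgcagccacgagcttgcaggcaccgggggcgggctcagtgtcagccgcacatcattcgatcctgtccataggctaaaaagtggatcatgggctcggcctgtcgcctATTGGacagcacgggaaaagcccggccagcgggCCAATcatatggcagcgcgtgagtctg
Mvk: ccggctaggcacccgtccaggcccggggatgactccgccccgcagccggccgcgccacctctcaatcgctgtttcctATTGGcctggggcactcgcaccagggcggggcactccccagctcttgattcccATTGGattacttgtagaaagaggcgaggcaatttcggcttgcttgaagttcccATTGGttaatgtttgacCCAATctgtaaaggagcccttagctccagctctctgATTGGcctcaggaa
Lss: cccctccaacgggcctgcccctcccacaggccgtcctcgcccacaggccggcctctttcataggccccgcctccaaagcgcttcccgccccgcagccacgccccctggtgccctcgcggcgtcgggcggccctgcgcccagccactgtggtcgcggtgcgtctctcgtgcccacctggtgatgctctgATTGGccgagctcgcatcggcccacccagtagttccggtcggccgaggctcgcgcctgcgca

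Promoter windows (250 bases before to 50 after a start) were at hand for 21 of the 31 genes, and 19 of these (90.5%) held CCAAT on either strand. The share was 43.0% over 11667 tested genes with a window, 46.7% over called higher genes and 42.3% over called lower genes. The strict sterol core was found in 1 of the 21 (4.76%), in 2 of 15 naive genes (13.3%) and in 1 of 14 epiblast genes (7.14%), against 1.51% of tested genes. The TCF and LEF core (CTTTGAT or CTTTGTT, either strand) was held by 7.77% of tested genes, by 6.77% of 813 called higher and by 8.99% of 690 called lower. By list, 2 of 21 sterol and fatty acid genes (9.52%, Hmgcs1 and Hsd17b7) and 1 of 15 naive genes (6.67%) held that core. So did 2 of 14 epiblast genes (14.3%) and 3 of 12 Wnt target genes (25%). In the Hmgcs1 bases printed above that core is left in lower case. These matches are letters in a window and no measure of binding.

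**Figure D2:**
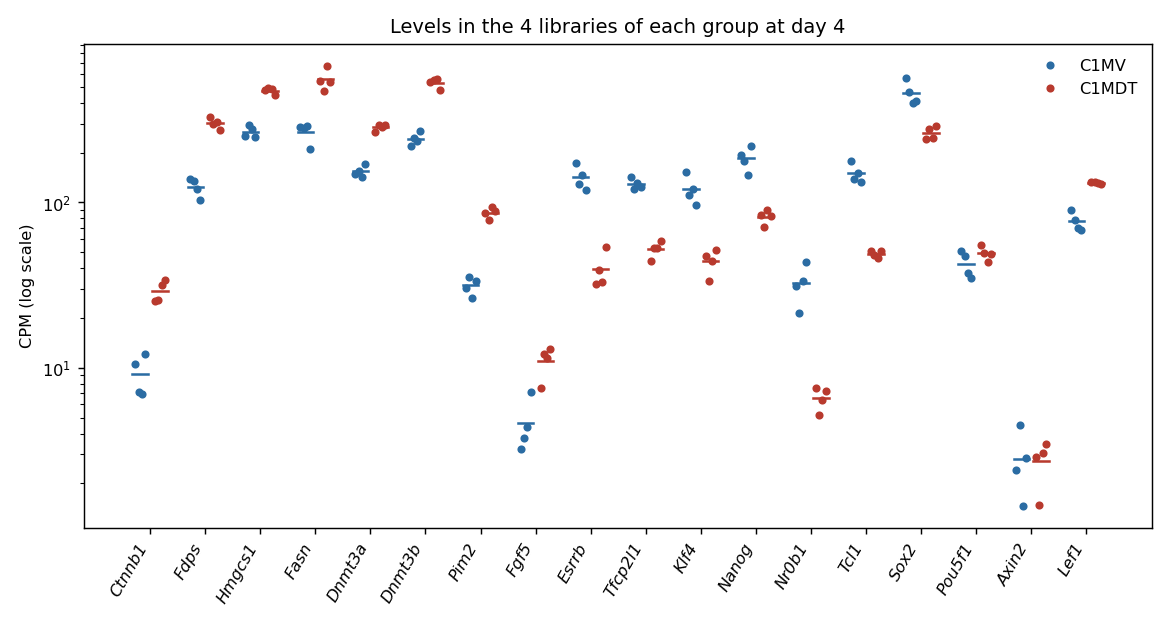
Points are the 4 libraries of C1MV (blue) and of C1MDT (red) for 18 genes and bars are group means, in CPM on a log axis. Fdps, Hmgcs1, Fasn and the DNA methyltransferases sit higher in C1MDT and Esrrb to Sox2 lower without overlap, while Pou5f1 and Axin2 overlap.

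Naive pluripotency genes were lower in C1MDT than in C1MV. All 22 listed genes were tested, 16 were lower and none was higher, with a median log2 fold change of -1.10, where 5.95% of all tested genes were lower. Their summed level was 3697 to 4368 CPM in C1MV and 2017 to 2335 in C1MDT, after 10030 to 10540 in C1M at day 0. In C1T, which was never induced, it was 1802 to 2251. Leaving out C1MV replicate 4 again gave 16 members lower.

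Esrrb (ENSMUSG00000021255, chromosome 12 from 86361117 to 86521628), an orphan nuclear receptor and one of the best known naive factors downstream of the β-catenin pathway, was counted at 174, 129, 148 and 119 CPM in C1MV and 32.3, 39.1, 32.95 and 53.7 in C1MDT (log2 fold change -1.85, SE 0.11, edgeR FDR = 7.35e-26). Tfcp2l1, a naive factor that also answers to LIF, went from 143, 119.8, 130.5 and 123 to 44.4, 52.7, 52.8 and 58.5 CPM (log2 fold change -1.30, SE 0.09, edgeR FDR = 2.47e-26). Nanog, the homeodomain factor at the centre of the network, went from 194, 177, 148 and 219 to 83.6, 71.2, 89.9 and 82.9 CPM (log2 fold change -1.15, SE 0.09, edgeR FDR = 1.69e-20). In all 3 genes the highest C1MDT library stayed under the lowest C1MV library. The Krüppel-like factors Klf2, Klf4 and Klf5, which can stand in for one another in naive cells, fell by 1.44, 1.46 and 0.65 on the log2 scale. Klf5 was counted at 1814 to 2172 CPM in C1MV and 1159 to 1373 in C1MDT. Nr0b1 (Dax1), a partner of the Oct4 network, had the steepest fall of the list, from 31.5, 21.3, 33.4 and 43.5 to 7.498, 5.16, 6.42 and 7.23 CPM (log2 fold change -2.26, SE 0.35, edgeR FDR = 3.53e-05). Zfp42, which encodes Rex1, the standard reporter gene for leaving the naive state, fell by 1.64 (edgeR FDR = 3.66e-08). Tcl1, a coactivator of AKT, fell by 1.63 (edgeR FDR = 5.59e-27), and the adhesion gene Jam2 by 2.16 (edgeR FDR = 2.23e-15). Tbx3, Nr5a2, Spp1, Fbxo15 and Stat3 also fell. Fgf4, which drives exit from the naive state and is kept on in primed cells, stood at 110.1, 88.4, 76.3 and 99.9 CPM in C1MV and 95.7, 110.2, 109 and 94.3 in C1MDT (edgeR FDR = 0.364). Socs3, Prdm14, Manba, Dppa3 and Gbx2 did not pass either, and all of them were low, with group means between 0.775 and 10.1 CPM.

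General pluripotency genes, which naive and primed cells share, gave calls in both directions: 4 of 20 were higher and 3 lower (35%, where 12.6% of all tested genes were called), with a median log2 fold change of -0.06. Pou5f1, which encodes Oct4, was at 50.8, 47.2, 37.4 and 34.96 CPM in C1MV and 55.4, 49.4, 43.6 and 48.9 in C1MDT (edgeR FDR = 0.425). Its partner Sox2 fell from 566, 464, 399.8 and 413 to 242, 278, 244 and 292 CPM (log2 fold change -0.80, SE 0.09, edgeR FDR = 2.51e-10). Mybl2, a cell cycle factor, and Rif1, a telomere and replication timing factor, fell by 0.76 and 0.41. Higher were Utf1 (0.47), Lin28b (0.54), Dppa4 (0.44) and L1td1 (0.33).

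Of 20 listed markers of the early post-implantation epiblast 19 were tested, 9 were higher, none was lower and 10 were not called, where 6.64% of all tested genes were higher, and their median log2 fold change was 0.46. Fgf5, the textbook formative marker, was low in both groups but rose from 3.23, 3.74, 4.36 and 7.13 to 7.498, 12.2, 11.4 and 13.1 CPM (log2 fold change 1.36, SE 0.32, edgeR FDR = 6.82e-04). Pou3f1, which encodes Oct6, rose from 89.9, 112, 106 and 56.4 to 159, 140.5, 173 and 137 CPM (log2 fold change 0.71, SE 0.13, edgeR FDR = 7.01e-05). Pim2, a serine kinase, went from 30.2, 35.6, 26.5 and 33.5 to 86.5, 78.2, 93.5 and 88.4 CPM (log2 fold change 1.47, SE 0.13, edgeR FDR = 8.33e-20), far outside the spread of either group.

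Etv4, a target of ERK signalling, Sox11, Sox3 and Tead2 rose by 0.55 to 1.02, of which Sox3 was not called without C1MV replicate 4 (edgeR FDR = 0.0738). Otx2, an early epiblast factor, was counted at 285, 313, 258 and 258 CPM in C1MV and 359.9, 309.7, 316 and 299 in C1MDT and was not called (edgeR FDR = 0.0784). In the never induced C1T the list summed to 3566 to 4218 CPM, beside 3128 to 3357 in C1MDT and 2108 to 2554 in C1MV. For Pim2 the 250 bases before the start (chrX:7878056-7878305, plus strand) are shown as the window of the most raised epiblast gene, with capitals on its 1 TCF and LEF core, which lies 65 bases before the start and is read on the opposite strand.
Pim2: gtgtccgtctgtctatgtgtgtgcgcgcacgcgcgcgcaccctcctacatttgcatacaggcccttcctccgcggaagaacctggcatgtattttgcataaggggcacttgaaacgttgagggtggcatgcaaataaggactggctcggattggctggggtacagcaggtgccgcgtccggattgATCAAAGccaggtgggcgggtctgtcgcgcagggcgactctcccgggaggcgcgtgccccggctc

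Among enzymes that write and erase DNA methylation, Dnmt3a and Dnmt3b rose and Tet2 and Tet1 fell. Dnmt3a, a de novo methyltransferase, was at 148, 154, 143 and 171 CPM in C1MV and 267, 294, 287 and 295 in C1MDT (log2 fold change 0.90, SE 0.08, edgeR FDR = 1.66e-18). Its relative Dnmt3b (ENSMUSG00000027478, chromosome 2 from 153649450 to 153687730) was at 219, 245, 234 and 271 CPM in C1MV and 537, 549.7, 560.4 and 476 in C1MDT (log2 fold change 1.14, SE 0.09, edgeR FDR = 7.40e-19). The third family member Dnmt3l, a cofactor without activity of its own, was at 369 to 456 and 355 to 425 CPM and was not called (edgeR FDR = 0.807). The maintenance enzyme Dnmt1 and its partner Uhrf1 were not called either. Tet2, an oxidase that starts removal of the mark, fell from 43.9, 35.6, 25.1 and 34.2 to 21.9, 12.5, 13.96 and 13.8 CPM (log2 fold change -1.21, SE 0.16, edgeR FDR = 7.15e-09). Tet1, of the same family, fell by 0.26 (edgeR FDR = 0.0201), a call lost without C1MV replicate 4 (edgeR FDR = 0.259). Zfp57, which protects imprints, fell by 0.72 (edgeR FDR = 0.00284) and lay near the threshold without that library (edgeR FDR = 0.0477). Tet3, of the Tet family, and Tdg, a glycosylase that takes part in removal, were not called (edgeR FDR = 0.816 and 0.528). Over the list 3 of 19 genes were higher and 6 lower, beside 6.64% and 5.95% of all tested genes.

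Nodal with its feedback inhibitors and 8 germ cell genes were lower. Nodal, the TGF-β ligand of the epiblast, went from 59.3, 57.7, 43.3 and 52.8 to 36.3, 32.8, 30.7 and 32 CPM (log2 fold change -0.70, SE 0.13, edgeR FDR = 1.95e-05). Its feedback inhibitors Lefty1 and Lefty2, both induced by Nodal, fell by 0.78 and 1.26 (edgeR FDR = 2.80e-04 and 3.05e-10). Lefty2 was counted at 107, 101, 77.8 and 78.5 CPM in C1MV and 40.95, 32.4, 39.9 and 39.9 in C1MDT. The other 16 of 19 tested members of that list were not called by edgeR, while DESeq2 called 5 lower, adding Tdgf1, the Nodal coreceptor (DESeq2 FDR = 0.0463), and Inhbb, an activin subunit (DESeq2 FDR = 0.0448). Of 15 tested primordial germ cell genes 8 were lower and none higher, where 5.95% of all tested genes were lower, with a median of -0.56. Tfap2c, the AP2γ factor of germ cell precursors that naive cells also express, fell from 105, 75.6, 104 and 75.6 to 49.6, 44.2, 33.5 and 39.2 CPM (log2 fold change -1.16, SE 0.11, edgeR FDR = 8.35e-17). Prdm1, which encodes Blimp1, fell by 1.22, Ifitm1 by 0.95, Sycp3 by 0.79 and Dazl by 0.67. The defining gene Nanos3 was at or under 2.41 CPM in every library.

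Endoderm genes were counted in both arms. Dab2, an endocytic adaptor of extraembryonic endoderm, was counted at 156, 273, 259.5 and 243 CPM in C1MV and 414, 523, 437 and 418 in C1MDT (log2 fold change 0.95, SE 0.14, edgeR FDR = 1.78e-05), beside a mean of 11.2 in C1T and 15.7 in C1M. Gata6, which specifies primitive endoderm, rose from 26.6, 37.8, 30.5 and 33.5 to 38.1, 44.2, 49.1 and 47.1 CPM (log2 fold change 0.49, SE 0.15, edgeR FDR = 0.0184). The Gata6 call was lost in fits without 1 library that are listed below. Foxa2 rose by 0.65 (edgeR FDR = 0.00608). Gata4 and Sox17, at 15.3 to 28.5 and 11.7 to 21.7 CPM in C1MV and 21.7 to 26.9 and 17.3 to 23.5 in C1MDT, were not called. Over the list of endoderm factors 3 of 18 were higher and 1 lower (22.2%, beside 12.6% of all tested genes).

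Of 32 tested visceral and extraembryonic endoderm effectors 6 were higher and 5 lower, beside 6.64% and 5.95% of all tested genes. The 5 that fell by edgeR's test, Apoe, Apob, Apoa4, Apoa1 and Clu, encode apolipoproteins. DESeq2 called 8 lower, adding Apoa2, the transferrin gene Trf and the fibrinogen chain Fgb, whose edgeR FDR of 0.0617, 0.0505 and 0.0626 narrowly missed the threshold, and library size alone as the scaling gave 6. The apolipoproteins Apoc2 and Apom were not called (edgeR FDR = 0.675 and 0.902). The 5 called by edgeR had log2 fold changes from -0.87 to -0.39, and without C1MV replicate 4 the list had 7 higher and 3 lower, Apoa1 (edgeR FDR = 0.054) and Apoa4 (edgeR FDR = 0.102) being lost. Apoe was at 2531, 2167, 2459 and 3014 CPM in C1MV and 1396, 1621, 1113 and 1432 in C1MDT (log2 fold change -0.87, SE 0.11, edgeR FDR = 8.26e-07). Higher were Spink1, a protease inhibitor (log2 fold change 0.73, SE 0.11, edgeR FDR = 2.17e-07), the cathepsin Ctsh, Tfpi, Amn, a part of the endocytic receptor of yolk sac endoderm, Soat2, which esterifies cholesterol, and the metal transporter Slc39a8. Cubn, the partner of Amn, stood at 9.68, 17.97, 15.99 and 20.7 and 10.96, 17.3, 17.03 and 19.6 CPM (edgeR FDR = 0.894). Afp and Thbd were too low to test. Among 26 basement membrane genes 6 were higher and 3 lower. Sparc, a collagen-binding protein of parietal endoderm, rose from 1979, 2379.6, 2289 and 2406 to 3114, 3116, 3572 and 3195 CPM (log2 fold change 0.52, SE 0.07, edgeR FDR = 7.39e-11), and its mean was 218 in C1T. Col4a1 and Col4a2, which form the collagen IV of the membrane, rose by 0.61 and 0.41, and Lamb1 by 0.42, while Lama1 and Lamc1 were not called. Fn1 fell by 0.58 (edgeR FDR = 7.80e-10) and Nid1 by 0.50 (edgeR FDR = 0.0203, and 0.141 without C1MV replicate 4).

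Of 24 tested neuroectoderm genes 4 were higher and 2 lower, where 12.6% of all tested genes were called. Sox1, the earliest neural factor, rose from 86.3, 86.5, 94.5 and 89.9 to 170.2, 153, 174 and 164 CPM (log2 fold change 0.89, SE 0.10, edgeR FDR = 1.46e-13), and Nes, an intermediate filament of neural progenitors, by 1.03 (edgeR FDR = 7.96e-04). Pax6 overlapped between the groups (9.27 to 17.8 and 11.7 to 18.1 CPM). Of genes used at later neuronal stages, Ncam1 fell by 1.05 (edgeR FDR = 1.65e-19) and Tubb3 by 0.63 (edgeR FDR = 1.42e-06), while Map2 was at 3.57 to 9.81 and 5.19 to 8.26 CPM and was not called (edgeR FDR = 0.998). Of 24 tested mesoderm and streak genes 1 was higher and 4 lower, and the 4 were Nodal, both Lefty genes and Bmp4. Lhx1 was the gene that rose, from 1.61, 4.87, 2.91 and 1.43 to 8.65, 8.85, 8.66 and 4.13 CPM (edgeR FDR = 0.015, and 0.0452 without C1MV replicate 4). Mixl1 was at or under 0.403 CPM in every library. Of the Notch genes Hes6 rose by 1.00 (edgeR FDR = 3.14e-13) and Hes1 fell by 0.72 (edgeR FDR = 1.36e-07), while 2 of 20 were higher and 2 lower in all. The 18 trophectoderm genes gave 2 higher and 1 lower, the 31 cardiovascular genes 2 and 3, the 23 urogenital genes 3 and 2, the 34 Hox genes 0 and 1, and the 12 genes of the two-cell-like state 0 and 1, which was Zscan4c, 1 of a family of near-identical copies.

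**Figure D3:**
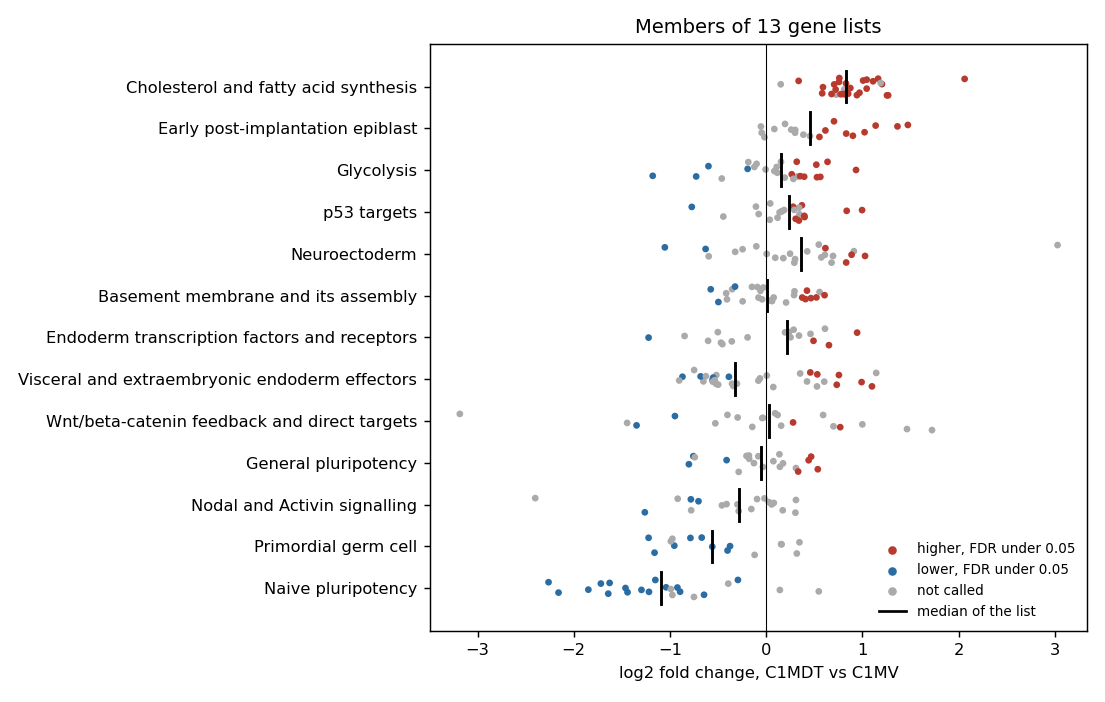
Each point is a tested member of 1 of 13 lists, placed at its log2 fold change of C1MDT vs C1MV and coloured by its call at FDR under 0.05, and the black bar is the list's median. Sterol and fatty acid genes lie to the right of 0 throughout (median 0.83) and naive genes mostly to the left (median -1.10), while Wnt targets and general pluripotency genes straddle 0.

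Of 25 glycolysis genes 9 were higher and 4 lower (52%), where 12.6% of all tested genes were called. Ldha, which makes lactate, rose from 821, 873, 733 and 723 to 1306, 1129, 1126 and 993 CPM (log2 fold change 0.53, SE 0.07, edgeR FDR = 7.08e-10), and Ldhb, the form that favours the reverse reaction, fell from 174, 149.8, 184 and 146 to 68.6, 72.3, 60.04 and 89.1 CPM (log2 fold change -1.18, SE 0.10, edgeR FDR = 1.22e-20). Slc16a3, which exports lactate, rose by 0.56, and Pdk1, a kinase of pyruvate dehydrogenase, by 0.64. Aldoc rose by 0.93 and Pfkp fell by 0.60. The shares were nearer to those 12.6% for nuclear genes of the respiratory chain, with 8 higher and 5 lower of 77 (16.9%), and for the mitochondrial ribosome, with 7 and 1 of 76 (10.5%), and the mitochondrial mRNAs gave 0 and 3 of 12. With library size alone as the scaling, 8 respiratory chain genes were lower. Cytosolic ribosomal proteins gave 3 and 15 of 86. Of the 5 with the lowest FDR, Rpl7 rose by 0.38 on the log2 scale, and Rpl12, Rpl3, Rps24 and Rpl10l had log2 fold changes of -0.36, -0.39, -0.33 and -0.71. These genes have many processed copies, and reads that fit more than 1 place were not counted, so their values are uncertain.

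Targets of p53 were higher in 8 of 22 and lower in 1, and the counts of this and the next lists stand beside 6.64% of all tested genes higher and 5.95% lower. Pidd1, a death domain adaptor, rose from 14.9, 14.6, 14.5 and 12.8 to 32.9, 31.7, 26.2 and 25.5 CPM (log2 fold change 1.00, SE 0.18, edgeR FDR = 6.84e-06), Btg2 by 0.84, Ccng1 by 0.40, and Cdkn1a, the p21 inhibitor, by 0.37 with overlapping libraries. Some G1 cyclins rose too. Ccne1 went from 56.05, 73.8, 64.3 and 70.6 to 108, 98.1, 104 and 89.8 CPM (log2 fold change 0.60, SE 0.10, edgeR FDR = 2.65e-06) and Ccnd2 by 0.46, while the inhibitor Cdkn1b fell by 0.50, and the whole list gave 7 of 22 higher and 1 lower (4 and 1 without C1MV replicate 4). Replication genes were higher in 5 of 40 and lower in 2, and mitotic genes in 1 and 3 of 32. In the integrated stress response 2 of 34 were higher and 5 lower, among them Chac1, which breaks down glutathione (log2 fold change -0.77, SE 0.15, edgeR FDR = 4.24e-05), while Ddit3 and Atf4 were not called. Of 30 imprinted genes 6 were higher and 6 lower. Plagl1, a zinc finger gene of growth control, was at 7.66, 7.11, 6.91 and 7.13 CPM in C1MV. In C1MDT it was at 1.15, 1.11, 0.279 and 1.38 CPM (log2 fold change -2.90, SE 0.42, edgeR FDR = 8.40e-09). These C1MDT values lay near the floor or under it, so the size of the fall is uncertain. Meg3 rose by 0.39 (edgeR FDR = 1.02e-04). Of 29 genes of FGF signalling and its feedback, 4 were higher and 2 lower, and Dusp6, the phosphatase most often read as a sign of ERK activity, was at 34.7, 43.4, 43.3 and 42.8 and 53.1, 50.1, 47.8 and 52.99 CPM (edgeR FDR = 0.111). Folate genes gave 2 and 1 of 23, BMP genes 2 and 2 of 20, genes of epithelial to mesenchymal transition 2 and 2 of 24, hypoxia genes 3 and 2 of 15, retinoid genes 3 and 1 of 18, guidance genes 3 and 2 of 44, and the LIN28, HMGA and IGF2BP group 3 and 1 of 10.

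Over all 42 lists, 1056 different genes were tested, of which 144 were higher and 115 lower. Together 259 were called (24.5%, beside 12.6% of all tested genes), and 231 without C1MV replicate 4. The lists were chosen with earlier results of these data known, so their share is a description and no test. The naming rule, which takes the 12 largest rises and 12 largest decreases among well counted genes without overlap, named among the rises, besides list members described above, Aacs, the matrix protein gene Egflam (2.82 to 8.56 CPM in C1MV and 12.5 to 17.6 in C1MDT), Vrtn (9.09 to 13.6 and 22.1 to 32), known for its role in vertebral number, Cdk5r2 (40.7 to 59.97 and 109 to 144), an activator of CDK5, and the tight junction gene Cldn7 (6.85 to 10.2 and 15.5 to 23.2).

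Among the decreases it named the nuclear long non-coding RNA Neat1, the scaffold of paraspeckles, which fell from 133, 123, 139 and 148 to 44.4, 44.2, 49.1 and 39.2 CPM (log2 fold change -1.60, SE 0.10, edgeR FDR = 2.29e-30). Also named were Napsa, an aspartic protease, Calcoco2, an autophagy receptor, Mapt, which encodes tau, the adhesion receptor Adgre5 and Adap1, the last 4 of them with log2 fold changes from -1.87 to -1.58. Napsa was at 22.2, 14.2, 11.3 and 17.8 CPM in C1MV and 4.04, 3.69, 4.19 and 4.13 in C1MDT. Both metallothioneins, chosen after their values were seen, were lower: Mt2 went from 2412, 2769, 2380.0 and 2180.4 to 1323, 1147, 1301 and 1292 CPM (log2 fold change -0.95, SE 0.06, edgeR FDR = 5.59e-27) and Mt1 fell by 0.52 (edgeR FDR = 1.03e-10). Nfkbia, the inhibitor of NF-κB, and Hrk, a BH3-only gene of cell death, seen in the same way, fell by 1.24 and 0.88, and Actb rose by 0.45.

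Counts of the main lists moved little when any 1 of the 8 libraries was left out: 27 to 28 sterol and fatty acid genes and 8 to 11 epiblast genes were higher, and 15 to 16 naive genes lower. Other counts rested on single libraries. Without C1MDT replicate 3, germ cell genes lower went from 8 to 5, destruction complex members higher from 6 to 3, endoderm effectors lower from 5 to 2, basement membrane genes lower from 3 to 1 (also without C1MDT replicate 4), respiratory chain genes lower from 5 to 2, glycolysis genes lower from 4 to 2 (also without C1MV replicate 3 or 4) and mitochondrial mRNAs from 3 to 0. Without C1MV replicate 4, the G1 list went from 7 higher to 4, respiratory chain genes lower from 5 to 3 and replication genes lower from 2 to 4. Imprinted genes lower went from 6 to 2 without C1MV replicate 3, and to 3 without C1MV replicate 1 or C1MDT replicate 2. Nodal genes lower went from 3 to 5 and ribosomal protein genes higher from 3 to 5 without C1MV replicate 3, endoderm factors higher from 3 to 5 without C1MDT replicate 4, and ligands and receptors lower from 3 to 1 without the same library. By DESeq2, general pluripotency genes lower went from 3 to 5 and guidance genes higher from 3 to 1. Most list counts of 1 to 3 given above changed without at least 1 library.

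Of the 148 called genes named here, 23 lost their call without at least 1 library. Stat3, Ccnd1, Porcn, Fzd5, Sox3, Vcl, Nid1, Apoa4 and Slc39a8 did so in 4 to 6 of the 8 fits. Gata6 was lost without C1MDT replicate 3, C1MV replicate 1 or C1MV replicate 3, Wls without C1MDT replicate 4, C1MV replicate 2 or C1MV replicate 3, and Cox4i1 without C1MDT replicate 2, C1MDT replicate 4 or C1MV replicate 1. Bmp4 and Apoa1 were lost without C1MDT replicate 3 or C1MV replicate 4, Lhx1 without C1MDT replicate 3 or C1MV replicate 1, Dazl without C1MDT replicate 3 or C1MV replicate 2, and Tet1 without C1MDT replicate 1 or C1MV replicate 4. Rpl13a was lost without C1MV replicate 4, Cby1 without C1MV replicate 2, Lin28b and Amn without C1MV replicate 1, and Zscan4c and Clu without C1MDT replicate 3.

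The high fraction offered the same comparison in 8 other libraries, C1HDT against C1HV. There 2442 genes (16.0%) were called, 1390 (9.10%) higher and 1052 (6.88%) lower. Of the genes higher in C1MDT, 668 were also higher in C1HDT, which is 65.8% of the first list and 48.1% of the second, and none was lower. Of the genes lower in C1MDT, 490 were lower in C1HDT (53.9% and 46.6%) and 1 was higher. That gene was Cox4i1, a subunit of cytochrome oxidase, with log2 fold changes of -0.24 in the moderate and 0.21 in the high fraction. Across all tested genes Pearson's r of the 2 sets of log2 fold changes was 0.29, over genes that are not independent replicates and many of which are low.

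Sterol and fatty acid genes were higher in 29 of 31 in the high fraction, with a median of 0.88, naive genes lower in 17 of 22 (median -0.93) and epiblast genes higher in 9 of 19 (median 0.47). Cytosolic ribosomal proteins gave 3 higher and 15 lower of 86 in the moderate fraction (median -0.08) and 24 higher and 2 lower in the high fraction (median 0.08). The nuclear-encoded respiratory chain gave 8 higher and 5 lower of 77 in the moderate fraction (median 0.04) and 33 and 1 in the high fraction (median 0.24). The mitochondrial ribosome gave 7 and 1 of 76 (median 0.10) and 30 and 1 (median 0.25). The difference between the fractions was not tested for any list. Ctnnb1 rose by 2.26 in the high fraction (edgeR FDR = 3.61e-15), from 4.13, 6.25, 8.60 and 5.86 CPM in C1HV to 28.6, 36.3, 30.2 and 28.3 in C1HDT. The C1HDT range overlapped that of C1MDT (25.4 to 34.1), whereas at day 0 C1M (9.45 to 17.8) and C1H (34.9 to 48.7) had not overlapped. A difference in Ctnnb1 between C1MDT and C1HDT was not tested. A direct test of the difference between the fractions gave 0 genes at FDR under 0.05 by edgeR's quasi-likelihood test, with 1284 genes at an unadjusted p under 0.05 (8.40%), and DESeq2 gave 20. A p above the threshold does not show that the fractions responded alike. The 4 genes with the lowest FDR in that test were Rpl13a, Stox2, Cox4i1 and Gpx1 (edgeR FDR = 0.104 for each). Stox2 was at 39.1, 32.6, 45.4 and 27.8 CPM in C1MV and 32.9, 36.5, 37.1 and 42.7 in C1MDT, and its log2 fold change was 0.02 here and -0.83 in the high fraction. For Tcl1, of the naive list, the log2 fold changes were -1.63 and -1.15 (unadjusted p = 0.00226 and FDR = 0.279 of edgeR's test for the difference).

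**Figure D4:**
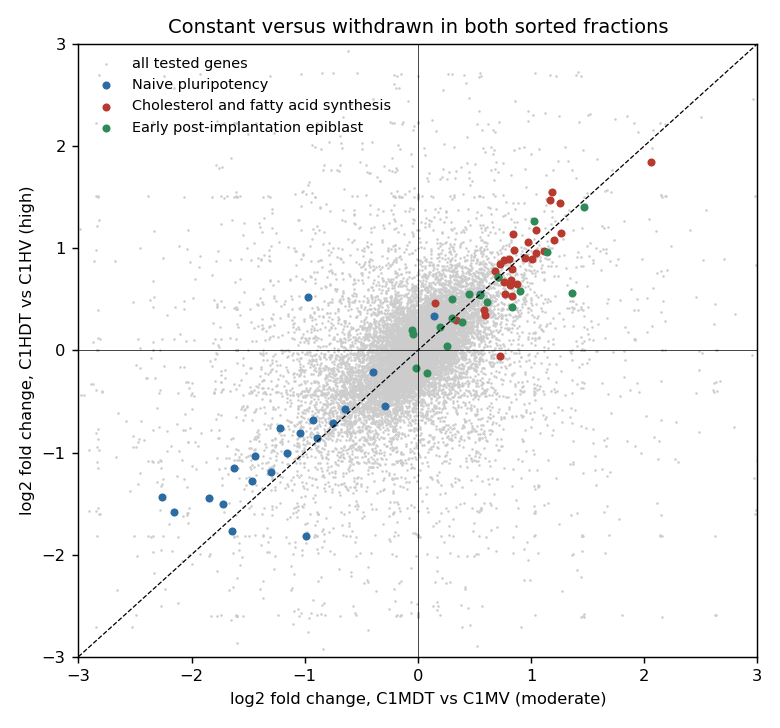
For each gene the log2 fold change of C1MDT vs C1MV (x axis) is set against that of C1HDT vs C1HV (y axis), grey for all tested genes and coloured for 3 lists, with the dashed line at equality. The sterol genes lie in the upper right and the naive genes mainly in the lower left, and 197 genes fall outside the axis limits of 3.

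At day 0 the sorted moderate fraction after 48 h of induction, C1M, was compared with C1, in libraries that share none with the day 4 groups. The controls of the 2 days are unlike: C1 cells had TMP but never dox and were sorted as living cells without selection for mCherry, whereas C1MV cells had been induced, sorted for mCherry and then held in vehicle. What differs between the days therefore cannot be told apart from what differs between the controls. In C1M against C1, 4022 genes (26.3%) were called, 2184 (14.3%) higher and 1838 (12.0%) lower. Of the 1015 genes higher in C1MDT, 171 were higher in C1M (16.85% of the first list and 7.83% of the second) and 229 were lower (22.6% and 12.5%). Of the 909 lower in C1MDT, 260 were lower in C1M (28.6% and 14.15%) and 179 higher (19.7% and 8.20%). In the sterol and fatty acid list the counts lay on opposite sides in these 2 comparisons. At day 0 it had 1 member higher and 17 lower of 31 (median -0.33), with Fasn at 819.7 ± 88.99 CPM in C1 and 338 ± 40.5 in C1M (mean ± SD, n = 4), against 27 higher and 0 lower at day 4. The difference between the comparisons was not tested. Naive genes were split at day 0, with 8 higher and 6 lower of 22. Klf4 was already lower then (1285 ± 109 in C1 and 756 ± 63.6 in C1M), and at day 4 it stood at 119.8 ± 23.6 in C1MV, 44.1 ± 7.59 in C1MDT and 40.01 ± 3.28 in C1T. Nanog had been higher in C1M than in C1 by 0.20 (edgeR FDR = 0.0375), where it was lower in C1MDT by 1.15.

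Set beside C1T, C1MV stood higher in 18 of 22 naive genes by its mean and C1MDT in 10. For Esrrb the means were 82.3 ± 9.63 in C1T, 142 ± 24.1 in C1MV and 39.5 ± 9.93 in C1MDT. Dnmt3a was highest in C1T (798 ± 54.9), then in C1MDT (286 ± 12.8) and C1MV (154 ± 12.3). Fdps ran from 124 ± 15.7 in C1MV over 221 ± 5.58 in C1T to 303 ± 22.5 in C1MDT, with C1MV lowest and C1MDT highest. These levels are given side by side without a test, since both arms would share C1T.

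**Figure D5:**
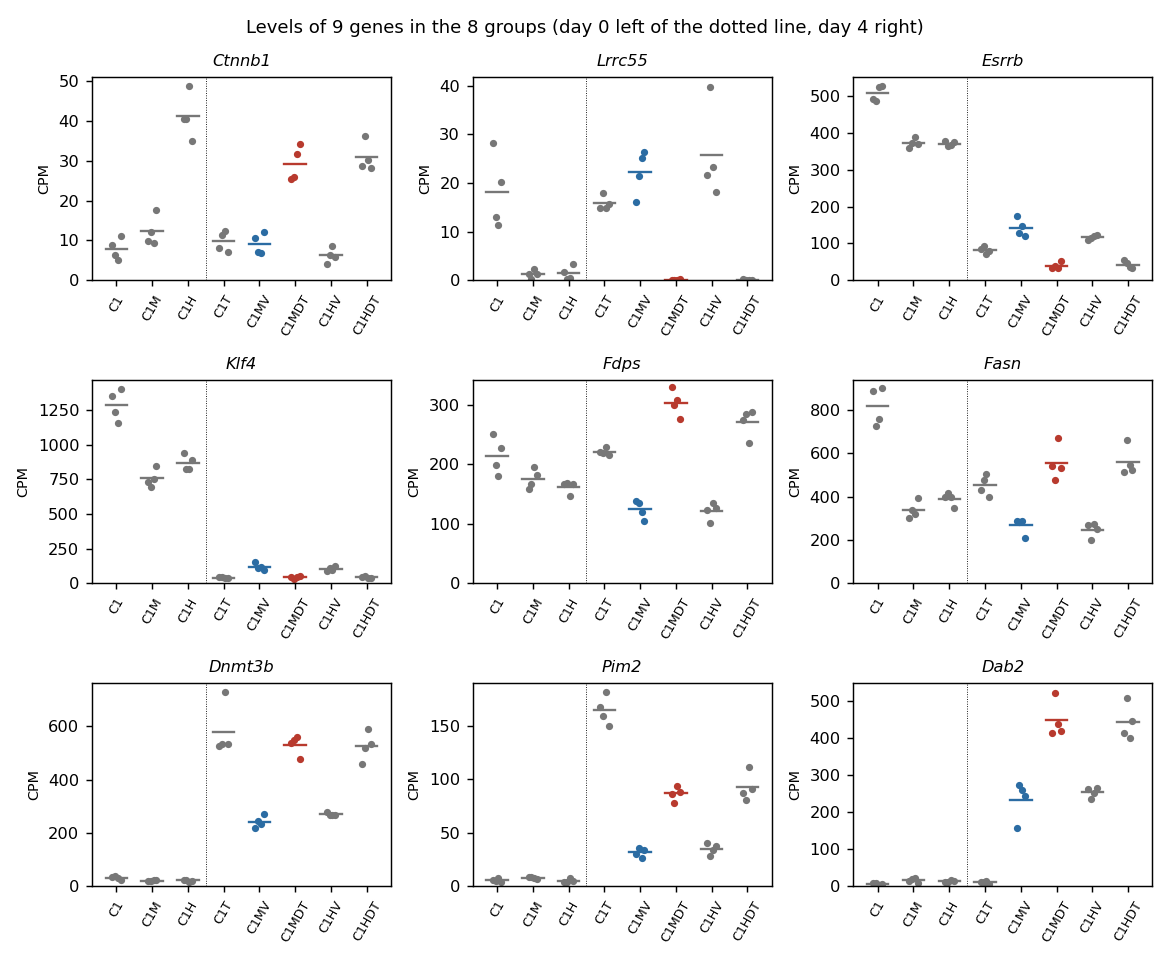
Each panel shows 1 gene in CPM from 0 in the 8 groups, with a point per library, a bar at the mean of 4, C1MV in blue, C1MDT in red and day 0 to the left of the dotted line. Lrrc55 is near 0 in every group collected under dox and TMP, and Fdps and Fasn are lower in C1MV and C1HV than in C1MDT, C1HDT and C1T.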

How the data were processed

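RNA from the 32 libraries was read by QuantSeq 3′ FWD sequencing. According to the study's methods the authors trimmed reads with bbduk, aligned them with STAR to mm10 and counted them per gene with htseq-count; the strand setting is not given in the sources used here. The deposited values are raw counts per gene, for 31053 genes a library, with reads outside genes and reads fitting several places listed apart and left out of library sizes and tests.

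Genes at 1 CPM or more in at least 4 libraries were tested (15280) in 1 model over all 8 groups with edgeR 4.0.16 in R 4.3.3 (TMM scaling, quasi-likelihood test, two-sided, Benjamini-Hochberg adjustment, threshold 0.05). DESeq2 1.42.0, other filters, scalings and fits, and leaving out each library were alternatives. In simulated counts of this comparison (14868 genes) 59% of 2-fold and 82% of 4-fold changes were recovered, and 6.62% of the calls were false. The main fit did not pair libraries by replicate number.

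The members and lists were chosen with earlier results of these data known. Genes named were Ctnnb1 and Axin2 and the 12 largest rises and 12 largest decreases without overlap at a mean log2 CPM of 3 or more. Fixed key genes and up to 5 members of lowest FDR per list, called or not, were also named. So were the 4 genes of lowest FDR for the difference between fractions. Others, including further list members, were named after their values were seen. Some members are not reported here by name.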

Additional observations from a re-analysis of the deposited data

Results flagged for a closer look

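In 404 groups of 4 values, 19 had 1 library far from the other 3 by Dixon's test, and chance gives about 1 in 20. C1MDT replicate 1 was lowest of its group in Mapt (2.307 CPM, others 7.742 to 8.259) and Ccnd1 (121.7 CPM, others 141.3 to 142.8). The same library was highest in Tet2 (21.92 CPM, others 12.53 to 13.96) and in the share of gene reads on ribosomal proteins (12.57%, others 12.07% to 12.14%). C1MDT replicate 2 was lowest in Lefty2 (32.44 CPM, others 39.92 to 40.95) and highest in Cyp51 (485.2 CPM, others 456.8 to 461.1). C1MDT replicate 3 was highest in Jam2 (10.33 CPM, others 6.538 to 6.922) and L1td1 (556.3 CPM, others 521.4 to 526.8). C1MDT replicate 4 was lowest in Lhx1 (4.129 CPM, others 8.652 to 8.848) and Hrk (62.97 CPM, others 72.6 to 73.83).

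C1MV replicate 4, the library that stood apart, gave 5 of the 19. It was lowest in Fasn (210.5 CPM, others 281.2 to 288.6), Lefty1 (196.2 CPM, others 259.9 to 263.6) and Ccng1 (106.3 CPM, others 122.6 to 125.8), and highest in Insig1 (85.62 CPM, others 55.79 to 58.15) and Msmo1 (301.1 CPM, others 255.2 to 259.9). Fasn, Insig1 and Msmo1 kept their calls without it. C1MV replicate 1 was lowest in Dusp6 (34.68 CPM, others 42.81 to 43.44) and highest in Nr5a2 (77.82 CPM, others 55.97 to 59.22), and C1MV replicate 2 was highest in Tfpi (109.0 CPM, others 79.91 to 81.78) and lowest in Apoa2 (219.4 CPM, others 267.3 to 274.1).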

How the results depend on the processing

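The 1924 genes called between C1MDT and C1MV became 1750 to 2131 under other filters, scalings and tests, and 1410 to 1850 without 1 library. Of 148 called genes named in the text, 7 lost their call under at least 1 setting that kept all libraries and none changed sign. With the replicate number as a block 1858 genes were called, and 1809 in a blocked fit of only both groups. The latter was an alternative chosen after seeing the data. The deviations of same-numbered libraries from their group means correlated at -0.044, -0.0024, 0.016 and 0.027. These values cover all tested genes, many of which are low. They cannot show whether same-numbered libraries share a sort or a plating. The test of the difference between fractions gave 0 genes, but 20 by DESeq2, 11 without a filter on low counts, and 0 to 8 without 1 library; the cause was not tested. Among genes not called, the sign of the log2 fold change turned without 1 library in Axin2 (-0.28 to 0.36), Dnmt3l (-0.091 to 0.020), Lamc1 (-0.16 to 0.0038), Mixl1 (-1.61 to 1.46), Cubn (-0.11 to 0.20), Lama1 (-0.14 to 0.13), Nanos3 (-1.06 to 0.15), Stox2 (-0.048 to 0.15), Apom (-0.11 to 0.041), Tet3 (-0.54 to 0.089) and Map2 (-0.13 to 0.25). The value for Map2 in C1MDT vs C1MV also turned with a CPM of at least 1 in all 8 libraries (-0.000536), by library size only (-0.00827) and without a filter (-0.00096). Of 39 named genes that were not called, 9 were called under at least 1 alternative: Trf, Fgb, Tdgf1, Inhbb, Apoa2 and Prdm14 by DESeq2 and other settings, Ddit3 without a filter on low counts and in the blocked fit of both groups, Tm7sf2 by the likelihood ratio test and without C1MDT replicate 4, and Otx2 without C1MDT replicate 4 or C1MV replicate 2. Genes near 3 counts per library, such as Axin2, Mixl1 and Nanos3, could not be resolved at this depth.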
